A study of Mus musculus with 3 samples.

Results

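The genes described are those of the mouse cytochrome P450 family, taken as every gene of the arrays whose name in the scanner files begins with Cyp and a digit. They number 82 of the 19712 genes the arrays name here, and 117 of the 41174 probes. The study measured total RNA of adult liver from C57BL/6 mice aged 12 weeks, of fetal liver from C57BL/6 fetuses at day 13.5 of gestation, and of C57BL/6 bone marrow. Each tissue was hybridised once, as Cy3-labelled cRNA on a 1-colour Agilent mouse array, so there is 1 array per tissue and no replicate check on any value. The labels do not make clear if the marrow donors were 12 weeks old too, and the sources used here give neither the sex nor the number of animals behind each RNA. No treatment, transgene or mutation is named for any of the 3 tissues.

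Cytochrome P450s are heme enzymes that insert an oxygen atom into their substrates, using electrons passed on by a reductase. Those of families CYP1 to CYP3 mainly oxidise drugs and other foreign compounds, most of them in hepatocytes, while others make or break down bile acids, steroid hormones, retinoids, vitamin D and fatty acids. In the mouse the drug-metabolising subfamilies have expanded into gene clusters of close relatives. Here the probes of 6 Cyp3a genes lie on chromosome 5 (mm9 138335318 to 146789234), those of 7 Cyp2d genes on chromosome 15 (82205919 to 82620634) and those of 11 Cyp2c genes on chromosome 19 (39116674 to 44079594). Close relatives can share signal on an array. For 14 of the 82 genes the accessions of the probe name further genes, such as Cyp2c67, Cyp2c68 and Cyp2c69 beside Cyp2c40, Cyp3a41b beside Cyp3a41a, and Cyp2a5 beside Cyp2a4.

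Sequences of the promoters were at hand for 60 of the 82 genes, as RefSeq windows on the build GRCm38.p6 that run from 250 bases before to 50 bases after each start. The 9-base motif CAAAGTCCA, a form of the site bound by the hepatocyte factor HNF4A, stood on one strand or the other in 0.475% of all 32851 windows and in those of 7 of the 60 genes: Cyp2c40, Cyp2c65, Cyp2c70, Cyp3a11, Cyp3a16, Cyp3a41a and Cyp8b1. The retinoic acid response motif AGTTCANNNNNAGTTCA stood in 0.0244% of all windows and, among the P450s, only in that of Cyp26a1, a retinoic acid hydroxylase, while its form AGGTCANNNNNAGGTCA was in none of the 60. The TATA motif TATAAA was found in 13.6% of all windows and in those of 27 P450 genes, the dioxin response core GCGTG in 32.4% and in 15, and the GATA motif AGATAA in 11.2% and in 11. The 150 bases before the start are shown 5′ to 3′ for 8 genes, because they include genes that share a motif and a cluster but differ in the tissues where they were detected. Capitals mark the motif CAAAGTCCA, or in Cyp26a1 the reverse complement of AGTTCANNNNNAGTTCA, and neither overlaps another motif named here.
Cyp26a1: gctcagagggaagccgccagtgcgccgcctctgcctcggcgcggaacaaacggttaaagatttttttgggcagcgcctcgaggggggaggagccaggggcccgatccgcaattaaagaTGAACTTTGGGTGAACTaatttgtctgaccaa
Cyp8b1: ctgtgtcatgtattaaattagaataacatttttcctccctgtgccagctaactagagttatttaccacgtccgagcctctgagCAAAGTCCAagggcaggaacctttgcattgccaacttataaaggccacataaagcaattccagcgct
Cyp2c70: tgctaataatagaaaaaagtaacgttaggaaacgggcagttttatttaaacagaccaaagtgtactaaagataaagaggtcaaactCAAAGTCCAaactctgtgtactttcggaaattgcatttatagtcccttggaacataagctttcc
Cyp2c40: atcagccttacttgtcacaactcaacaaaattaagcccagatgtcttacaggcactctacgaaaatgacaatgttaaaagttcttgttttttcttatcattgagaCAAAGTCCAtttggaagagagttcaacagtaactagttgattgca
Cyp3a11: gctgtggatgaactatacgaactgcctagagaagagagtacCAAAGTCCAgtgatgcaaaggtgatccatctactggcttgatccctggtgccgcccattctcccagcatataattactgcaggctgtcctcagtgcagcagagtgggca
Cyp3a16: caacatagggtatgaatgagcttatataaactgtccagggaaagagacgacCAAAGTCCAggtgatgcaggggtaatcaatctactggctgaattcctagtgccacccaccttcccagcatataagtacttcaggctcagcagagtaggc
Cyp3a41a: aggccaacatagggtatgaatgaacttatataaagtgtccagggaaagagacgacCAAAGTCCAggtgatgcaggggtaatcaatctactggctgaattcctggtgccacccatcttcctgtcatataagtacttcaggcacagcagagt
Cyp3a44: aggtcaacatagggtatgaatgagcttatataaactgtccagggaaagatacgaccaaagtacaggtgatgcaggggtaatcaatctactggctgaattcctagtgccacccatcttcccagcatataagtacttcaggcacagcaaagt

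On GRCm38.p6 these windows are chr19:37697658-37697807 on the plus strand for Cyp26a1, and on the minus strand chr9:121916306-121916455 for Cyp8b1, chr19:40187287-40187436 for Cyp2c70, chr19:39812815-39812964 for Cyp2c40, chr5:145879855-145880004 for Cyp3a11, chr5:145469724-145469873 for Cyp3a16, chr5:145720137-145720286 for Cyp3a41a and chr5:145805875-145806024 for Cyp3a44. Cyp3a16, Cyp3a41a and Cyp3a44 were nearly alike over the 80 bases that begin 20 before the motif, with 96.25% to 97.5% of bases identical. Cyp3a11 shared 43.75% to 47.5% of those bases with them. Cyp3a44 has no capitals because it differs from the motif by C7A, counted from 1 at the motif's first base. A match or its absence describes the letters in these windows and says nothing of binding.

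Whether a probe registered its RNA was read from the scanner's call of a spot well above background, and 82.9% of the P450 genes (68 of 82) were detected by it in adult liver, against 53.7% (44) in fetal liver and 40.2% (33) in the marrow. Over all 19712 genes the shares were 65.4% for the adult organ, 70.4% for the fetal one and 70.7% for marrow, so the P450s stood above the average gene in adult liver and below it in both other tissues. The split by tissue was uneven. Of the 82 genes 26 were detected in all 3 tissues and another 26 in adult liver alone, among them Cyp2e1, Cyp2f2, Cyp1a2, Cyp7a1, Cyp8b1 and Cyp26a1. A further 14 were shared by adult and fetal liver, and 2 by adult liver and bone marrow, Cyp27a1 and Cyp2j9. Detection without adult liver was rare: Cyp2c66 and Cyp21a1 in fetal liver alone, Cyp1b1 and Cyp4x1 in fetal liver and bone marrow, and Cyp2ab1, Cyp2w1 and Cyp11a1 in bone marrow alone. Apart from Cyp1b1 and Cyp11a1 these were faint, with 47.0 in fetal liver and 122 in bone marrow for Cyp4x1, 66.3 and 38.2 in bone marrow for Cyp2ab1 and Cyp2w1, and 18.5 in fetal liver for Cyp2c66. The 7 genes detected nowhere were Cyp2b23, Cyp2c65, Cyp4a29, Cyp4f41-ps, Cyp11b2, Cyp19a1 and Cyp24a1.

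Signals are given as the scanner's processed signal, in arbitrary intensity units, in the order adult liver, fetal liver, bone marrow. They are comparable for 1 probe across tissues and not between probes. Folds were formed after each array was divided by the 75th percentile of its gene spots, which was 296.5 on the adult liver array, 386 on the fetal liver array and 894.5 on the bone marrow array, so they differ from the ratio of the printed signals. A difference of 4-fold or more was counted. A gene that was dim in 1 tissue of a pair has only a bound as its fold, written "at least": the bright side was set against the lowest signal that passed the detection call on the other array, or against the dim probe's own signal where that was higher. Where it was dim in both, no fold was formed.

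As a check of the labels, all 8 hepatocyte markers were detected in adult liver, 7 of them in fetal liver and 3 in the marrow, with summed scaled signals of 2285, 403 and 0.503. Albumin gave 293000 in adult liver, against 67900 in fetal liver and 6.21, not above background, in bone marrow. Erythroid markers summed to 52.0, 549 and 398 in the same order, and neutrophil markers to 2.72, 147 and 1793. These are bulk RNAs, in which fewer cells of a type and less RNA per cell cannot be told apart.

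Most P450 genes had a higher signal in adult liver than in fetal liver. Of the 70 genes with a fold, 54 passed 4-fold upwards in adult liver and 0 passed it downwards, against 14.1% of all genes higher and 12.1% lower. The median over these 70 was 67.9-fold towards adult liver, bounds included, and 51.5-fold over the 40 detected in both tissues, while over all genes, bounds included, it was -0.06 on the log2 scale. All 54 kept their direction under each of the 8 other scalings, background corrections, probe rules and filters recomputed gene by gene. The 8 hepatocyte markers were higher in adult liver as well, all past 4-fold, with a median of 9.51-fold, and 5 of them stayed past it with the spike-in scaling. The part of hepatocyte number in the P450 difference was not tested.

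The drug and foreign compound P450s accounted for 42 of the genes, and 32 of the 37 with a fold were at least 4-fold higher in adult than in fetal liver, with a median of 97.4-fold. The subfamilies differed in how much signal fetal liver had. In the CYP3A group, the main drug-oxidising subfamily of liver, all 6 were higher, and 3 of them were dim in fetal liver. Cyp3a41a had a signal of 105000 in adult liver, against 19.1 in fetal liver and a dim 11.5 in bone marrow, which is the largest measured fold over fetal liver in the family, 7157. Cyp3a16, first described from mouse fetal liver, had 13500 in adult liver against 6.89 and 4.78, both dim, in fetal liver and bone marrow (at least 1172-fold over fetal liver). Cyp3a25 (23600 in adult liver, at least 2048-fold) and Cyp3a44 (19700, at least 1710-fold) had the same adult-only pattern, though the second probe of Cyp3a44 read only 38.6 in adult liver and gave at least 3.35-fold. Cyp3a11, the main inducible CYP3A of mouse liver, gave 5800 in adult liver, against 44.0 in fetal liver and 38.6 in bone marrow, which made it 172-fold higher in adult than in fetal liver. Cyp3a13, also known from the intestine, gave 5540, 86.3 and a dim 4.94, and was 83.6-fold higher.

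**Figure D1:**
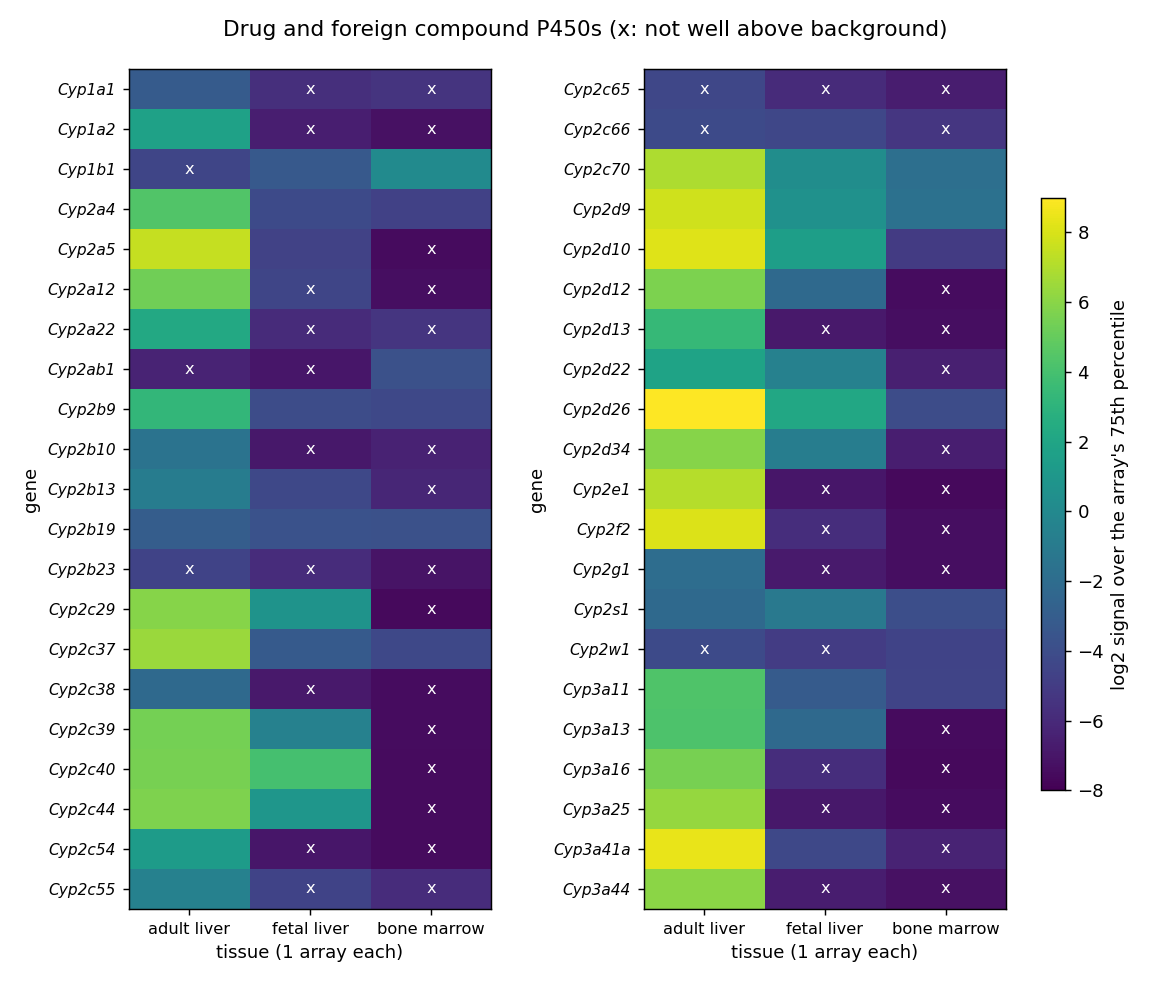
Log2 signal of the 42 drug and foreign compound P450s (rows, gene order) in adult liver, fetal liver and bone marrow (columns, 1 array each), relative to the 75th percentile of each array; an x marks a probe not well above background, and rows should be read across, not against each other. In 15 rows the left column alone is well above background. Fetal liver is above it in 23 rows, among them 6 of the 7 CYP2D rows and Cyp2c29, Cyp2c39, Cyp2c40, Cyp2c44 and Cyp2c70. Cyp1b1 is brightest in bone marrow.

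The CYP2A, CYP2E and CYP2F genes were as strongly tied to adult liver. Cyp2f2, which activates naphthalene and is best known from the airway, had 81200 in adult liver and dim signals of 6.99 in fetal liver and 5.41 in bone marrow, a difference of at least 7047-fold over fetal liver. Cyp2e1, the ethanol and acetaminophen oxidase, had 41300 in adult liver and dim signals of 3.01 and 4.76, at least 3584-fold over fetal liver. Cyp2a5, a coumarin and nicotine oxidase, had 53200, 15.5 and a dim 4.91, and was 4468-fold higher than in fetal liver. All 4 CYP2A genes were past 4-fold, with Cyp2a12 at least 895-fold and Cyp2a22 at least 121-fold apart. Cyp2a4 gave 6090 in adult liver, against 21.3 in fetal liver and 34.9 in bone marrow by the probe detected in all tissues (372-fold), and 22400 and 31300 in adult liver by its other probes, which were dim elsewhere. Its size is thus less certain than its direction, and its probes share accessions with Cyp2a5.

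Of the drug and foreign compound P450s, 13 were at least 4-fold higher in fetal liver than in bone marrow, against 9.33% of all genes. They were mainly CYP2D (6) and CYP2C (5). All 7 CYP2D genes, relatives of human debrisoquine hydroxylase, were higher in adult liver, by a median of 110-fold, yet 6 of them were detected in fetal liver. Cyp2d26 had 149000 in adult liver, against 1770 in fetal liver and 53.4 in bone marrow, while Cyp2d10 had 83800, 1120 and 26.8, which puts adult over fetal liver at 110-fold and 97.4-fold. Cyp2d22 was the nearest of the subfamily to fetal liver, with 1080, 266 and a dim 9.97 (5.29-fold), but its other probes gave 129-fold and at least 73.8-fold. Cyp2d34 (105-fold) was close to Cyp2d26 and Cyp2d10, and Cyp2d9 (150-fold), Cyp2d12 (236-fold) and Cyp2d13 (at least 271-fold, dim in fetal liver) lay above them.

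Of the 9 CYP2C genes compared, 8 were past 4-fold in adult over fetal liver. Cyp2c40, a mouse arachidonic acid oxidase whose promoter window holds CAAAGTCCA, had 13500 in adult liver, against 6120 in fetal liver and a dim 5 in bone marrow. It was 2.87-fold higher in adult than in fetal liver by this probe and 6.16-fold by its second probe (951, 201 and a dim 4.96), and both probes share accessions with its neighbours. By contrast Cyp2c37, another arachidonic acid oxidase of the same cluster, had 26400, 41.6 and 44.6, an 826-fold difference between adult and fetal liver, and 193-fold by its second probe (5090, 34.3 and 49.7), whose accessions also name Cyp2c50. Cyp2c44, whose accession is that of Cyp2c23 in RefSeq and which makes epoxides of arachidonic acid, was 27.8-fold higher in adult liver (15800, 740 and a dim 4.88), Cyp2c29 36.7-fold (18000, 638 and a dim 4.78) and Cyp2c39, a retinoic acid hydroxylase, 63.1-fold (12800, 264 and a dim 5.23). Cyp2c70, which makes the muricholic acids of mouse bile, had 35700, 482 and 261 and was 96.4-fold higher in adult than in fetal liver. Cyp2c54 and Cyp2c55 were detected in adult liver alone, at least 65.4-fold and 16.6-fold over fetal liver, as was Cyp2c38 with 64.0 against dim signals (at least 5.55-fold, and at least 2.53-fold by its second probe).

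The promoter windows shown above were picked to differ in the tissues of detection, so they cannot tell if the motif goes with fetal signal. Of the genes with CAAAGTCCA, Cyp2c40, Cyp2c70, Cyp3a11 and Cyp3a41a were detected in fetal liver, and Cyp8b1 and Cyp3a16 were not. Cyp2c65, whose window is not shown, holds it and was detected in none of the tissues. Cyp3a41a and Cyp3a44, with near-identical windows, were both past 4-fold in adult over fetal liver. In fetal liver Cyp3a41a was detected with 19.1 and Cyp3a44 was dim with 3.79. The second probe of Cyp3a44 gave only at least 3.35-fold. A link between the motif and signal was not tested.

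CYP2B genes, known for induction by phenobarbital, were past 4-fold in adult over fetal liver for 3 of 4 compared, led by Cyp2b9 with 2780, 22.8 and 44.0 (159-fold over fetal liver), followed by Cyp2b13 (161, 19.6 and a dim 12.4, 10.7-fold) and Cyp2b10 (101 and dim elsewhere, at least 8.77-fold). The probe behind these Cyp2b9 values also names Cyp2b10. The second probe of Cyp2b9, which names it alone, read 58.6 in adult liver and was dim elsewhere (at least 5.09-fold). The lead of Cyp2b9 thus rests on the shared probe. The other probe of Cyp2b13, whose accessions also name Cyp2b9, Cyp2b10 and Cyp2b23, gave 528 in adult liver against a dim 3.31 in fetal liver, at least 45.8-fold. Cyp1a2, the caffeine oxidase of liver, had 974 in adult liver and dim signals of 4 and 6.06 (at least 84.5-fold), whereas Cyp1a1, its dioxin-inducible relative, reached only 33.8 in adult liver, dim elsewhere (at least 2.93-fold). Cyp2b19 (37.2, 29.1 and 63.8) was 1.66-fold higher in adult than in fetal liver. Cyp2s1, found mostly outside the liver, ran the other way with 64.2 in adult liver, against 175 in fetal liver and 59.6 in bone marrow, 2.09-fold lower in adult than in fetal liver and short of the threshold, by the 1 of its 2 probes that was not dim throughout. Cyp2g1, an olfactory P450, had 78.3 in adult liver by one probe (at least 6.80-fold) and was dim throughout by the other.

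**Figure D2:**
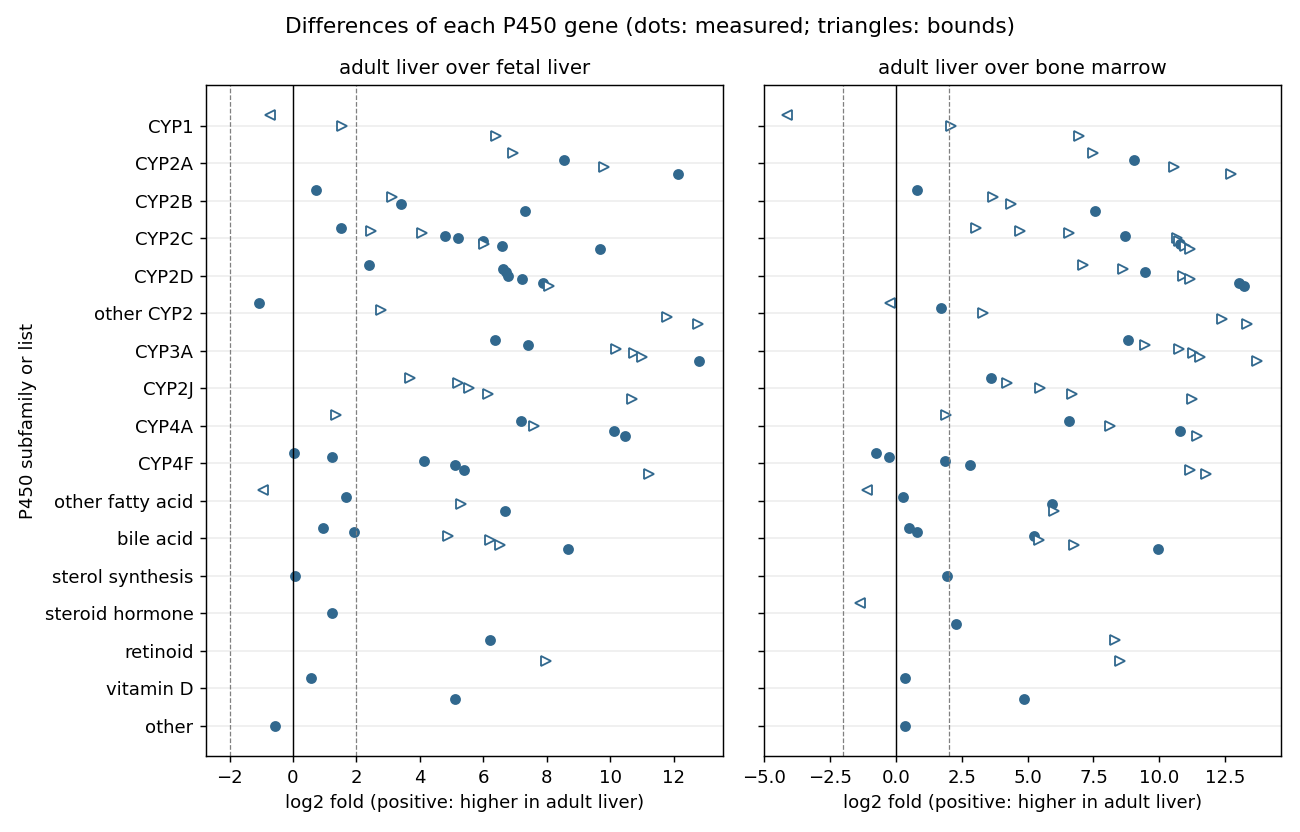
Log2 fold of adult liver over fetal liver (left) and over bone marrow (right) for each P450 gene with a fold, by subfamily or list; filled dots were well above background in both tissues, open triangles are bounds pointing away from 0, and dashed lines mark 4-fold. CYP2A, CYP2D, CYP3A and CYP2J lie wholly to the right of the 4-fold line in both panels, and Cyp1b1 is the one gene beyond the left line, against bone marrow.

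Among the fatty acid and eicosanoid P450s 15 of 20 with a fold were at least 4-fold higher in adult than in fetal liver, with a median of 40.8-fold, and 0 were lower by that margin. Cyp4f14, a leukotriene hydroxylase of liver, had 27600 in adult liver and dim signals of 3.85 and 5.96 (at least 2395-fold over fetal liver). Cyp4a14 and Cyp4a10, fatty acid hydroxylases controlled by the receptor PPARA, had 21400, 19.7 and a dim 22.3 (1414-fold) and 12400, 111 and 394 (145-fold). Cyp4a12a, the arachidonic acid hydroxylase of male mouse kidney, had 19100, 22.1 and 33.0 (1125-fold), and Cyp4a12b 2210 with dim signals elsewhere (at least 192-fold). All 5 CYP2J genes, epoxygenases of arachidonic acid, were dim in fetal liver, and ranged from Cyp2j5 with 19000 in adult liver (at least 1649-fold) through Cyp2j13 (813, at least 70.6-fold), Cyp2j9 (535, at least 46.4-fold) and Cyp2j6 (442, at least 36.7-fold) to Cyp2j11 (148, at least 12.8-fold). The probe of Cyp2j13 also names Cyp2j12, and the other 2 probes of Cyp2j13, which name it alone, were dim in all tissues, as was the second probe of Cyp2j11. Cyp2u1 was likewise detected in adult liver alone, with 502 (at least 39.6-fold). Cyp4v3, a fatty acid hydroxylase, had 11500, 146 and 569 (102-fold over fetal liver), Cyp4f15 18000, 558 and a dim 5.66 (42-fold), and Cyp4f13 1750, 129 and 742 (17.7-fold).

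Other genes of this list had no counted difference between adult and fetal liver. Cyp4b1, best known from the lung, was bright in all tissues with 1970, 807 and 4950, 3.18-fold higher in adult than in fetal liver. Cyp4f16 had 108, 139 and 542 (1.01-fold, turned under the spike-in scaling) and Cyp4f39, an enzyme of skin lipids, 65.0, 36.4 and 53.4 (2.33-fold). Cyp4a31 reached 29.3 in adult liver and was dim in fetal liver, so that its fold is known only to be at least 2.54.

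**Figure D3:**
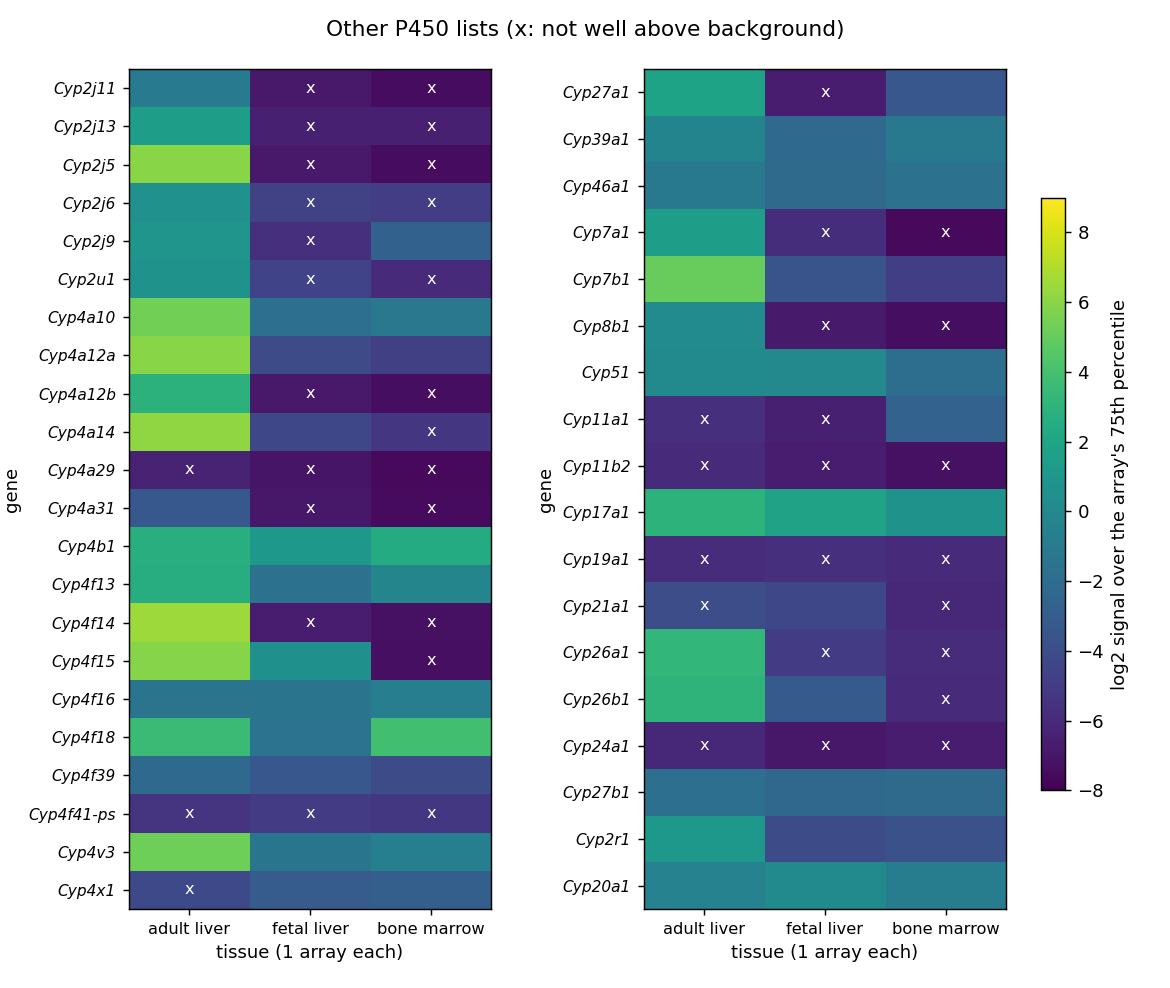
Log2 signal of the 40 remaining P450s in adult liver, fetal liver and bone marrow (columns, 1 array each), relative to the 75th percentile of each array, with fatty acid P450s on the left and the bile acid, sterol, steroid hormone, retinoid, vitamin D and unassigned P450s on the right; an x marks a probe not well above background. Cyp4f18 is bright in adult liver and bone marrow but not in fetal liver, Cyp11a1 is detected in bone marrow alone, and Cyp51, Cyp17a1 and Cyp20a1 are well above background in all 3 columns.

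Bile acid synthesis had its 4 liver enzymes higher in adult liver. Cyp7a1, the rate-limiting enzyme of the classical pathway, had 861 in adult liver and dim signals of 7.18 in fetal liver and 4.75 in bone marrow (at least 74.7-fold over fetal liver and 109.6-fold over bone marrow). Cyp8b1, which makes cholic acid, had 342 and dim signals of 3.53 and 5.47 (at least 29.7-fold and 43.5-fold). Cyp7b1, of the alternative pathway, had 9930, 31.6 and 30.7, 409-fold over fetal liver and 976-fold over bone marrow. Cyp27a1, the mitochondrial sterol hydroxylase that opens the alternative pathway, had 1070 in adult liver and a dim 3.66 in fetal liver, but 86.1 in bone marrow, where it was detected, so that adult liver stood at least 92.9-fold above fetal liver and 37.5-fold above bone marrow. The oxysterol enzyme Cyp39a1 (241, 83.0 and 411) and the brain cholesterol hydroxylase Cyp46a1 (134, 89.6 and 282) were detected in all tissues, and adult liver exceeded fetal liver by 3.78-fold and 1.95-fold.

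Cyp51, the lanosterol demethylase of cholesterol synthesis, lacked the large adult excess of Cyp7a1, Cyp7b1, Cyp8b1 and Cyp27a1. It had 314 in adult liver, against 389 in fetal liver and 245 in bone marrow. After scaling it was 1.05-fold higher in adult than in fetal liver and 3.87-fold higher than in bone marrow, and both directions turned when the arrays were scaled to the spike-in RNAs. Of the retinoid P450s, Cyp26a1, whose window holds the retinoic acid response motif, had 2880 in adult liver and dim signals of 12.5 and 15.5 (at least 250-fold over fetal liver and 367-fold over bone marrow). Cyp26b1, which clears retinoic acid in embryonic tissues, had 2480, 43.4 and a dim 15.1 (74.4-fold and at least 316-fold). Of the vitamin D P450s, Cyp2r1, which carries out the first activation step in liver, had 613, 23.1 and 64.3 (34.5-fold and 28.8-fold). Cyp27b1, which carries out the second step in kidney, had 87.5, 76.8 and 205 (1.48-fold over fetal liver and 1.29-fold over bone marrow), and Cyp24a1, which breaks the hormone down, was dim in all tissues.

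The steroid hormone P450s were mostly dim. Cyp17a1, which makes androgen precursors, was detected in every tissue with 2370 in adult liver, against 1320 in fetal liver and 1480 in bone marrow, which made it 2.34-fold higher in adult than in fetal liver. Over bone marrow it was up by 4.83-fold in adult liver, a direction that turned under the spike-in scaling. Cyp11a1, the side chain cleavage enzyme that starts steroid synthesis, was detected in bone marrow alone, with 145 against 5.68 in adult liver and 4.30 in fetal liver, and all 3 of its probes showed this. Cyp21a1, an adrenal hydroxylase, had 19 in fetal liver, just above background, and dim signals of 18.5 and 13.1, and aromatase Cyp19a1 and the aldosterone synthase Cyp11b2 were dim throughout. Of 6 adrenal cortex markers 5 were detected in adult liver, against 6 in fetal liver and 5 in bone marrow, with summed scaled signals of 16, 11 and 3.76. Most of each sum came from Fdx1, which also serves mitochondrial P450s of other tissues, while Star had 22.2, 39.6 and a dim 22.8, and Akr1b7 a dim 18.7, 188 and 70.6. Cyp20a1, a P450 of uncertain substrate, was detected in every tissue with 212, 406 and 505, and was 1.47-fold lower in adult than in fetal liver.

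Against bone marrow 56 of 72 genes were past 4-fold upwards in adult liver and 1, Cyp1b1, was past it downwards. Over all genes 18.8% were higher in adult liver and 15.0% lower. The median of the 72 was 117-fold and most of it rests on bounds, since only 28 of the 72 were detected in both tissues, where the median was 18.7-fold. Over all genes the median, bounds included, was 0.09 on the log2 scale. The largest were those of Cyp3a41a (at least 13366-fold), Cyp2f2 (at least 10336-fold), Cyp2d10 (9433-fold, and 189-fold by its second probe), Cyp2d26 (8418-fold), Cyp2a5 (at least 6772-fold), Cyp2e1 (at least 5257-fold), Cyp4f14 (at least 3513-fold) and Cyp3a25 (at least 3004-fold). Scaling to the spike-in RNAs, which set the median of all genes detected in both tissues at -2.69 on the log2 scale, in place of 0.16, left 45 genes higher in adult liver and 13 lower, and turned the direction of Cyp17a1 and Cyp4f13 (7.12-fold higher in adult liver).

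Cyp1b1, an oxidase of estradiol and of carcinogens that is known mostly from tissues other than liver, was the exception. It had 13.5, not above background, in adult liver, against 40.4 in fetal liver and 985 in bone marrow. Adult liver was at least 17.3-fold below bone marrow and fetal liver 10.52-fold below it. These values come from 1 of its 2 probes, and the other, for which no accession matched RefSeq, was dim in all tissues, so the mean of both probes ends both calls.

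Fetal liver and bone marrow, both blood-forming tissues, were closer to each other. Of the 49 genes with a fold, 15 were at least 4-fold higher in fetal liver and 3 at least 4-fold lower, against 9.33% and 8.30% of all genes. The median of the 49, bounds included, was 1.86-fold (0.89 on the log2 scale). Scaling to the spike-in RNAs left 42 genes with a fold, and their median was -1.67 on the log2 scale. Over all genes the median, bounds included, was 0.26. Bounds made up 21 of the 49 folds, and over the 28 genes detected in both tissues the median was 1.30-fold. Over all genes detected in both it was 1.19-fold. The genes higher in fetal liver were mainly CYP2C and CYP2D. Cyp2c40 exceeded bone marrow by at least 598-fold (6120 against a dim 5), Cyp2d10 96.8-fold (1.87-fold by its second probe), Cyp2d26 76.8-fold, Cyp2c44 at least 72.4-fold, Cyp2c29 at least 62.4-fold, the fatty acid hydroxylase Cyp4f15 at least 54.6-fold, Cyp2d22 at least 26.0-fold, Cyp2c39 at least 25.8-fold and Cyp2d34 at least 21.9-fold. These 9 kept the call in all 8 alternatives recomputed gene by gene, although the second probe of Cyp2d10 and 1 further probe of Cyp2d22 (at least 3.28-fold) fell short. The other 6 lost it in at least 1 alternative: Cyp3a13 (at least 8.44-fold), Cyp2d12 (at least 8.09-fold), Cyp2s1 (6.80-fold), Cyp2d9 (4.72-fold, and 29.6-fold by its second probe), Cyp2c70 (4.28-fold) and Cyp26b1 (at least 4.24-fold). Cyp2d9 and Cyp2c70 also turned direction under the spike-in scaling. Hepatocyte markers moved with these genes, 5 of the 7 compared being at least 4-fold higher in fetal liver than in bone marrow, and their part in the difference was not tested.

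**Figure D4:**
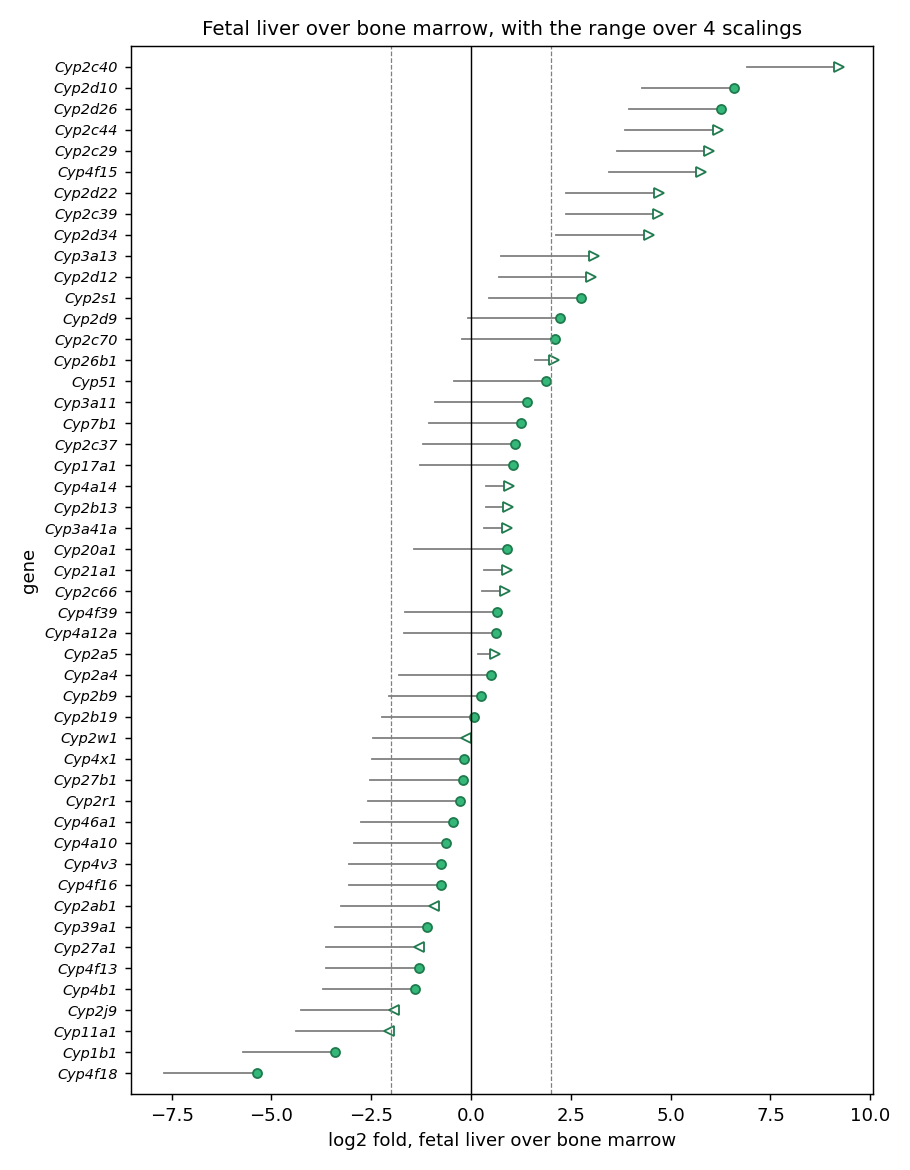
Log2 fold of fetal liver over bone marrow for the 49 P450 genes with a fold, in order of size; filled dots were well above background in both tissues, open triangles are bounds, grey lines span the values under 4 scalings, and dashed lines mark 4-fold. The long grey lines to the left end at the spike-in scaling, under which 9 genes stay at least 4-fold higher in fetal liver and 19 are lower.

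Cyp4f18, which inactivates leukotrienes in mouse neutrophils, ran against the family in this comparison. It had 3500 in adult liver, against 133 in fetal liver and 12700 in bone marrow. Fetal liver was 41.2-fold below bone marrow, a call kept in all 8 alternatives, while adult liver was 34.3-fold above fetal liver and 1.20-fold below bone marrow, within the threshold. Of 7 neutrophil markers 2 were detected in adult liver, and all 7 in each of the other tissues. All 7 were at least 4-fold lower in fetal liver than in bone marrow, with a median of 77.8-fold, against 8.30% of all genes. In adult liver 6 were at least 4-fold lower than in fetal liver, against 12.1% of all genes. The part of neutrophils in the signal of Cyp4f18 was not tested. Cyp11a1 was at least 4.17-fold lower in fetal liver than in bone marrow, a bound close to the threshold that fell short with normexp background correction, with the authors' normalized column and with the mean of its probes.

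Genes around the P450s were read from lists of electron donors, of receptors and transcription factors, and of enzymes that share their pathways. Among 11 electron donors with a fold, 4 were at least 4-fold higher in adult than in fetal liver and 0 lower, with a median of 2.21-fold. Over all genes 14.1% were higher and 12.1% lower. Por, the reductase that feeds all microsomal P450s, had 29600 in adult liver, against 6160 in fetal liver and 20600 in bone marrow (6.26-fold over fetal liver and 4.33-fold over bone marrow). The P450-binding protein Pgrmc1 (17.5-fold over fetal liver), and Cyb5b (9.82-fold) and Cyb5a (8.47-fold), cytochromes that pass on electrons, made up the rest. The ferredoxin system of mitochondrial P450s differed less, with Fdx1 at 4160, 3140 and 2800 (1.72-fold higher in adult than in fetal liver) and Fdxr at 2130, 2670 and 2170 (1.04-fold higher after scaling). Over bone marrow 6 of 11 were at least 4-fold up in adult liver, against 18.8% of all genes. They were led by Pgrmc1 (50.9-fold), Cyb5b (15.9-fold), the reductase Cyb5r3 (10.7-fold) and Cyb5a (7.30-fold). However, the spike-in scaling left 1 higher and 2 lower and turned the median to -0.73 on the log2 scale. Between fetal liver and bone marrow no electron donor of 11 was past 4-fold, against 9.33% of all genes higher and 8.30% lower. With the spike-in scaling 4 were lower. Alas1, the first enzyme of heme synthesis outside red cells, had 4950 in adult liver, against 909 in fetal liver and 16200 in bone marrow, so adult liver was 7.09-fold above fetal liver and 1.08-fold below bone marrow.

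Of 32 receptors and transcription factors of P450 genes with a fold, 17 were at least 4-fold higher in adult than in fetal liver and 0 lower. The shares over all genes were 14.1% and 12.1%. The median of the 32 was 4.23-fold, and the spike-in scaling left 12 higher. The bile acid receptor Nr1h4 had 8470, 286 and a dim 5.80 (38.6-fold over fetal liver), Ppara, which controls Cyp4a genes, 5483, 199 and a dim 25.7 (35.8-fold), and the bile acid responsive repressor Nr0b2 448 and dim signals elsewhere (at least 38.9-fold). The repressor Bcl6 had the widest difference, with 11400, 274 and 10300 (54.2-fold over fetal liver, and fetal liver 16.2-fold below bone marrow). The drug receptors Nr1i2 (1740, 200 and a dim 5.75) and Nr1i3 (2130, 479 and 77.8) were 11.3-fold and 5.79-fold higher in adult than in fetal liver, and the dioxin receptor Ahr (1203, 211 and 454) 7.43-fold. Hnf4a had 133, 39.5 and 97.0, 4.38-fold over fetal liver and 4.14-fold over bone marrow. Against bone marrow 22 of 32 were higher in adult liver, among them Nr1h4 (at least 1078-fold), Ppara (at least 644-fold) and Foxa2 (at least 612-fold), and 12 of 31 were higher in fetal liver, among them Foxa2 (at least 160-fold), the retinoic acid receptor Rarb (at least 70.4-fold) and Nr5a2 (at least 69.5-fold), with Bcl6 and the vitamin D receptor Vdr (at least 5.93-fold) lower. Of all genes 18.8% were higher and 15.0% lower in adult liver over bone marrow, and 9.33% and 8.30% in fetal liver over bone marrow. With the spike-in scaling 12 of the receptors and factors were higher and 8 lower in adult liver over bone marrow. In fetal liver over bone marrow 7 were then higher and 15 lower.

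**Figure D5:**
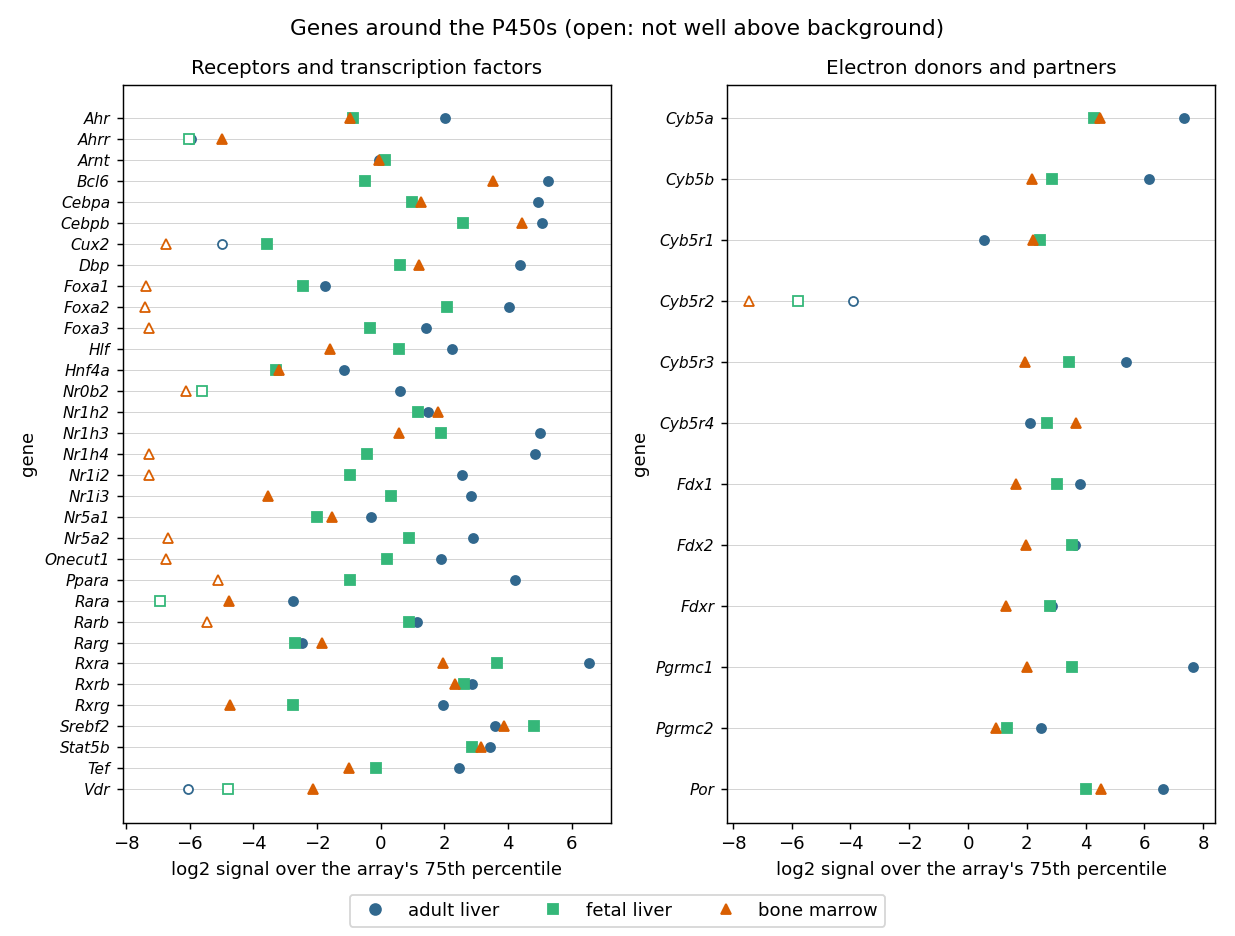
Log2 signal relative to the 75th percentile of each array for receptors and transcription factors (left) and electron donors (right) in adult liver (circles), fetal liver (squares) and bone marrow (triangles), 1 array each; open symbols were not well above background. The partner enzymes of bile acid and steroid synthesis are not drawn, though the title of the right panel names partners. Nr1h4, Nr1i2, Ppara and Foxa2 are dim in bone marrow, whereas Por and most electron donors are well above background in all 3 tissues.

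The partner enzymes of bile acid and steroid synthesis were at least 4-fold higher in adult than in fetal liver for 11 of 15, and 0 were lower. Their median was 20.6-fold, and the shares over all genes were 14.1% and 12.1%. The largest were the steroid reductase Akr1c6 with 111000, 106 and 33.9 (1363-fold), the bile acid conjugating enzyme Baat with 13200, 33.9 and a dim 5.25 (507-fold), the bile acid ligase Slc27a5 with 44600, 208 and a dim 6.43 (279-fold) and Hsd3b5 with 7370, 148 and a dim 9.70 (64.8-fold). Against bone marrow 12 of 16 were higher in adult liver and 1, the estrogen-forming Hsd17b1, was lower (at least 4.66-fold), with Akr1c6 (9878-fold), Slc27a5 (at least 5677-fold), Baat (at least 1680-fold) and Hsd3b2 (at least 1337-fold) at the top. Hsd3b2 (at least 82.9-fold), the peroxisomal oxidase Acox2 (at least 48.0-fold), Hsd3b1 (21.7-fold) and Slc27a5 (at least 20.3-fold) led the 8 of 14 that were higher in fetal liver than in bone marrow, and Hsd17b1 was again the 1 lower (at least 7.65-fold). Of all genes 18.8% were higher and 15.0% lower in adult liver over bone marrow, and 9.33% and 8.30% in fetal liver over bone marrow. With the spike-in scaling 4 of 11 partners were higher and 2 lower in fetal liver over bone marrow. With normexp background correction 6 of 14 were higher and 0 lower.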

How the data were processed

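Total RNA of 3 tissues was measured on 1 Agilent array each. Agilent Feature Extraction 10.5.1.1 read the scans, per the submitters' processing notes. Each deposited signal intensity had been background-subtracted and spatially detrended, and no normalization tied the arrays to each other, per the file headers. The authors also deposited a series table of raw intensity, normalized ratio and fold ratio columns. On 45018 of 45018 spots per array its raw column matched, within 1%, the error of the signal, and on 15081, 12064 and 13199 spots (adult liver, fetal liver, bone marrow) the signal too, so that table served only as an alternative, and which scale its authors intended stays unknown. Its normalized column is that error divided by 29.3, 37.8 and 85.3 (adult liver, fetal liver, bone marrow), uncentred, with medians of 0.187, 0.130 and 0.0936.

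Each array's signals were put on the log2 scale and centred on the 75th percentile of its gene spots (Python 3.11.15, pandas 2.3.3, numpy 2.4.6). Control spots and outlier spots (75 on the array of adult liver, 71 of fetal liver, 80 of bone marrow, none on a P450 probe) were left out, and no gene spot was saturated. Of 43379 gene spots 52.6%, 58.7% and 58.8% were well above background. Repeat spots of 1 probe had a median SD of 0.070, 0.066 and 0.054 on the log2 scale, which covers spot error only, and the number of arrays limits the precision. All 3 arrays lie on 1 slide read in 1 scan, per the file headers.

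A gene was represented by the probe well above background on most arrays, ties going to the brightest, and 28 P450 genes had more than 1 probe. Of the 82 names 81 are current RefSeq symbols. With 1 array per tissue no test was possible, so a difference of 4-fold or more was counted, with the same count over all genes beside it. Normexp correction with an offset of 50 used limma 3.58.1 in R 4.3.3, and quantile normalization used pandas and numpy. The members and gene lists were chosen with earlier results of these data known. Named were every member of lists of 8 or fewer. Of larger lists, named were the 8 largest differences per comparison, the 3 brightest per tissue, the members at least 4-fold higher in fetal liver or bone marrow than in adult liver and those detected in adult liver without a 4-fold excess over fetal liver. For pathway lists they were the 4 largest differences each way plus Por, Alas1, Ahr, Nr1i2, Nr1i3, Nr1h4 and Hnf4a. Further members are named to account for each subfamily, and Fdx1 and Fdxr were added after their values were seen. Probe positions are on mm9 and promoters on GRCm38.p6. One gene of the receptor list is not reported here. Alternatives were other scalings, background corrections, probe rules, detection calls and folds.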

Additional observations from a re-analysis of the deposited data

How the results depend on the processing

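No paired analysis was possible because each tissue has 1 array, and for the same reason no replicate could be left out. Scaling to 7 spike-in probes gave 13 P450 genes lower in adult liver than in bone marrow in place of 1, and in fetal liver against bone marrow 9 higher in place of 15 and 19 lower in place of 3. It turned Cyp17a1 (-0.57 on the log2 scale) and Cyp4f13 (-0.015) for adult liver over bone marrow, and Cyp2c70 (-0.22) and Cyp2d9 (-0.075) for fetal liver over bone marrow. It put the median of all genes detected in both tissues at -0.50 in place of 0.03 for adult over fetal liver, -2.69 in place of 0.16 for adult liver over bone marrow and -2.06 in place of 0.25 for fetal liver over bone marrow. Normexp correction gave 9 genes higher in fetal liver than in bone marrow, and the mean of all probes 0 lower in adult liver than in bone marrow. With only the 26 genes well above background on all arrays, which are fewer genes, the counts were 15 higher in adult than in fetal liver, 15 higher and 0 lower in adult liver than in bone marrow, and 5 higher and 1 lower in fetal liver than in bone marrow. With no filter on dim probes 3 genes were lower in adult liver and 6 lower in fetal liver than in bone marrow. At 2-fold, 1 gene was lower in adult than in fetal liver, 3 in adult liver than in bone marrow and 8 in fetal liver than in bone marrow. The looser detection call, signal positive and significant, gave 53 genes detected in bone marrow in place of 33. Leaving out the 14 genes whose probe accessions name several genes, an alternative chosen after seeing the data, gave 42 higher in adult than in fetal liver, 43 higher against bone marrow and 13 higher in fetal liver than in bone marrow. Gene by gene, 46 of the 54 genes called higher in adult than in fetal liver kept the call in all 8 alternatives recomputed per gene, as did 44 of 56 against bone marrow, 9 of 15 higher in fetal liver than in bone marrow, and Cyp4f18 of the 3 lower. Of 28 genes with several probes, 18 were called for adult over fetal liver, and in 13 of these all probes passed, with no probe passing the other way. Apart from the settings whose construction shows it, the cause of these changes was not tested.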

Other observations

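P450s known as predominant in 1 sex of adult mouse liver were read together with sex-linked RNAs, since the sex of the animals is not given in the sources used here. All 6 genes known as female-predominant passed 4-fold in adult liver over both other tissues, with signals from 161 for Cyp2b13 to 105000 for Cyp3a41a. All 5 known as male-predominant, Cyp2d9, Cyp2u1, Cyp4a12a, Cyp4a12b and Cyp7b1, were higher in adult liver by the same margin, with signals from 502 to 66000. Most P450s did the same, 54 of 70 with a fold over fetal liver and 56 of 72 over bone marrow. These counts thus do not set either list apart from the family. The shares over all genes were 14.1% and 18.8%. The adult liver array had all 4 Y-linked RNAs well above background, with 884 for Ddx3y and 1040 for Eif2s3y, and Xist at 4.67, not above background. Fetal liver had Xist at 12100 and 2 of the 4 Y-linked RNAs well above background, with Ddx3y at 108 and Eif2s3y at 173. Bone marrow had a dim Xist of 5.64 and all 4 Y-linked RNAs well above background, with Ddx3y at 1240 and Eif2s3y at 2840. The sex-linked RNAs thus differed between adult and fetal liver, and a part of sex in the P450 differences cannot be told apart from that of tissue. Probe accessions name relatives for Cyp2a4, Cyp2b9, Cyp2b13 and Cyp3a41a among the female-predominant genes. They also do so for Cyp2d9, Cyp4a12a and Cyp4a12b among the male-predominant genes.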
